A study of Mus musculus with 6 samples.

Results

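The baseline transcriptome of basal epidermal cells from newborn mouse back skin was described from the 3 control RNA-seq libraries of a series of 6 samples. The libraries were chosen by the genotype label alone, and the other 3 samples, Eed conditional knockouts of the same age, entered no value given here. Control mice were labelled only as Control at postnatal day 0 (P0). The alleles that the controls carry, the Cre driver of the series, the strain and the number of animals behind a library are not stated in the labels. Cells of the interfollicular epidermis were sorted as EpCAM-positive, Sca1-positive and α6-integrin-high after enzyme digestion of the skin, and their total RNA was amplified before sequencing as single reads. Whether each library is a separate animal is not labelled, so the spread between libraries may be technical.

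The basal layer of the epidermis holds its dividing keratinocytes. These cells anchor to the basement membrane through hemidesmosomes, which contain the α6β4 integrin, and join each other through desmosomes and adherens junctions. They build an intermediate filament network from the keratin pair K5 and K14, encoded by Krt5 and Krt14, under the control of the transcription factor p63, encoded by Trp63. On leaving the membrane they stop dividing and switch to the pair K1 and K10, encoded by Krt1 and Krt10. EpCAM (Epcam) is an epithelial adhesion protein, and Sca1 (Ly6a) is a surface antigen of interfollicular keratinocytes.

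Levels are given on 2 scales. CPM (counts scaled to equal library totals) were scaled by TMM and compare 1 gene between libraries. TPM divide each count by the summed exon length of the gene, are rescaled to the same total in each library and compare genes with each other. Values after ± are SDs with n = 3. Of the 24453 gene rows of the count tables, 12230 (50%) reached 1 CPM in all 3 control libraries and 6074 (24.8%) had no count in any of them. Those rows include microRNA and predicted genes, of which fewer reached 1 CPM. Of the 20527 protein-coding genes alone, 57.0% reached 1 CPM in all 3 libraries and 20.3% had no count. The shares of gene families and lists below are to be read beside both.

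The 300-base windows around the start of 6 genes are shown first, since they let the composition of abundant and silent genes be compared by eye. They are RefSeq sequences of build GRCm38.p6, from 250 bases before to 50 bases after the listed start, read 5′ to 3′ on the strand of the gene. Capitals mark CG dinucleotides and the letters TATAAA on the gene's own strand. Krt5 lay at chr15:101712856-101713155 on the minus strand, Krt10 at chr11:99389315-99389614 on the minus strand, and Krtdap at chr7:30787655-30787954 on the plus strand. Dsp lay at chr13:38151044-38151343, Atoh1 at chr6:64728875-64729174 and Olfr1477 at chr19:13500296-13500595, all on the plus strand. Krt5, Krt10, Krtdap (a secreted keratinocyte protein) and Dsp (desmoplakin) are among the 25 most abundant genes. Atoh1, the factor that specifies Merkel cells, and Olfr1477, an olfactory receptor, had no count in any control library. Atoh1 was chosen after its values were seen, and Olfr1477 as the silent olfactory receptor nearest to the median of its class.
Krt5: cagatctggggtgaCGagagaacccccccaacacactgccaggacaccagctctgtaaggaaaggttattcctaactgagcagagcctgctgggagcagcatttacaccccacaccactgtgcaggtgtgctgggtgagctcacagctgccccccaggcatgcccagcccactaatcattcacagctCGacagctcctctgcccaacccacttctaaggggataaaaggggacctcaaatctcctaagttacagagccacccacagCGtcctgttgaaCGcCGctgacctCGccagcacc
Krt10: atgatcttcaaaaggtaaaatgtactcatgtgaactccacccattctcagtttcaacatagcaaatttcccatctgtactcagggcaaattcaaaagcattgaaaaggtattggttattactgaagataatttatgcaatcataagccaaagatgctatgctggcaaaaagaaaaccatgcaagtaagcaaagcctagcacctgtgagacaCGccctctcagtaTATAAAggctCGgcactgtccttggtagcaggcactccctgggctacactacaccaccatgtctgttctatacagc
Krtdap: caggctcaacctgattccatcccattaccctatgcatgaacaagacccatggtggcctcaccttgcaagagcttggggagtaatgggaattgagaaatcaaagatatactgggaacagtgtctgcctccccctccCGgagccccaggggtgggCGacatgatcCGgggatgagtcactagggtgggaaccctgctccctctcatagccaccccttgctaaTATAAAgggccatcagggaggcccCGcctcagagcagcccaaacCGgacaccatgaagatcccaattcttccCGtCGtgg
Dsp: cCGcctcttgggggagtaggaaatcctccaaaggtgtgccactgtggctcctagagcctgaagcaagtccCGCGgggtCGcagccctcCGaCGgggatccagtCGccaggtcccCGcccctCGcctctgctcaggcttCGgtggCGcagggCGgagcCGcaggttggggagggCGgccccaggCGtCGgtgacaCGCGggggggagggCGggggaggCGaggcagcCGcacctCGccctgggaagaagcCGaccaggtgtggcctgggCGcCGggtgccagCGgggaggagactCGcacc
Atoh1: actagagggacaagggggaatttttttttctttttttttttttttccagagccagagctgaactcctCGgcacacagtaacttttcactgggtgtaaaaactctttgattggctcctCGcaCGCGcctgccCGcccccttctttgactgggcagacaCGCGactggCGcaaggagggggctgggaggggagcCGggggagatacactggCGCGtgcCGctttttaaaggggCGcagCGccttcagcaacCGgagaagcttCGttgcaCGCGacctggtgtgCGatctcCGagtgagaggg
Olfr1477: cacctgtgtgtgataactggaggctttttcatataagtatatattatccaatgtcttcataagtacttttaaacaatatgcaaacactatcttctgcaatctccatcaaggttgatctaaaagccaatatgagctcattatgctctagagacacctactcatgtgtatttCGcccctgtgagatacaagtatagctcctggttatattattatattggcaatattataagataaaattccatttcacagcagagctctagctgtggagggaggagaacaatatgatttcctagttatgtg

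The windows differed in their CG dinucleotides. The ratio of observed to expected CG was 0.251 for Krt5, 0.154 for Krt10 and 0.296 for Krtdap, against 0.686 for Dsp. It was 0.840 for the silent Atoh1 and 0.105 for the silent Olfr1477. TATAAA began 26 bases before the start of Krt10 and 30 bases before that of Krtdap. The 3 other motifs, searched on both strands, were the CCAAT box, the GC box with the letters GGGCGG, and the AP-1 site, which AP-1 factors bind, with the letters TGANTCA. Dsp held 4 GC boxes and Atoh1 held 1. The CCAAT box had 1 match in each of Krt10, Krtdap and Atoh1 and 3 in Olfr1477. Krtdap also held 1 AP-1 site. The Krt5 window held none of the 4 motifs, which says only that these letters are not in it. A match is a description of letters and not of a bound site.

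Across 11727 protein-coding genes with a listed start within 100 bases of their annotated 5′ end, windows with a CG ratio of at least 0.6 became more frequent with level up to 1000 TPM. They made up 11.1% of the 2037 silent genes and 26.4% of the 2150 genes detected at a mean under 1 CPM. The share was 52.4% of the 1754 genes from there up to 10 TPM. The share was 78.4% of 4517 genes at 10 to 100 TPM and 84.1% of 1241 genes at 100 to 1000 TPM. In the 28 genes at 1000 TPM or more it was 60.7%, against 53.8% of the 11727 genes as a whole. It was 35.8% of all 32851 listed windows, which also hold other starts and genes outside this set. TATAAA on either strand followed another order, with 24.6% of silent genes, 6.51% at 10 to 100 TPM and 28.6% at 1000 TPM or more. It was 11.7% of the 11727 genes and 13.6% of all windows. On the gene's own strand and 40 to 20 bases before the start, it was in 8.15%, 1.15% and 14.3% (4 of 28) of the same classes. That placed share was 3.21% of the 11727 genes and 1.99% of all windows. The GC box was found in 16.9% of silent genes, 67.7% at 10 to 100 TPM and 57.1% at 1000 TPM or more. Its share was 51.6% of the 11727 genes and 35.7% of all windows. In the same order the CCAAT box was in 44.0%, 40.1%, 39.3%, 39.95% and 37.4%, and the AP-1 site in 11.1%, 4.12%, 25%, 6.63% and 7.81%. Matches of different motifs overlapped in 0.475% of all windows.

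Silent genes were of unlike kinds. None of the 248 silent chemoreceptor genes (olfactory, vomeronasal and taste receptors) with a window reached a CG ratio of 0.6, and their median ratio was 0.112. Of the 67 silent transcription factor genes with a window, 36 (53.7%) did, with a median of 0.606. For transcription factors expressed at a mean of 1 CPM or more the share was 80.1% of 201 genes. Keratins expressed by the same mean stood at the other end, with 1 of 15 windows at 0.6 or more. TATAAA lay 40 to 20 bases before the start in 6 of those 15 keratins, against 3.21% of the 11727 coding genes and 1.99% of all windows. Of the 15, only Krt5 and Krt10 stood at 1000 TPM or more, and Krt5 had no TATAAA there. Besides Krt10, the keratins with it were Krt71 (18.2 TPM), Krt25 (10.8 TPM), Krt32 (5.73 TPM), Krt28 (3.63 TPM) and Krt26 (1.41 TPM). Krt32, Krt28 and Krt26 were each under 1 CPM in at least 1 library. Krt26 had 0.149, 0.130 and 2.85 CPM, and Krt28 had 1.75, 0.877 and 0.870 CPM. Krt14, Krt15, Krt1 and Krt17 had no window in this set.

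**Figure D1:**
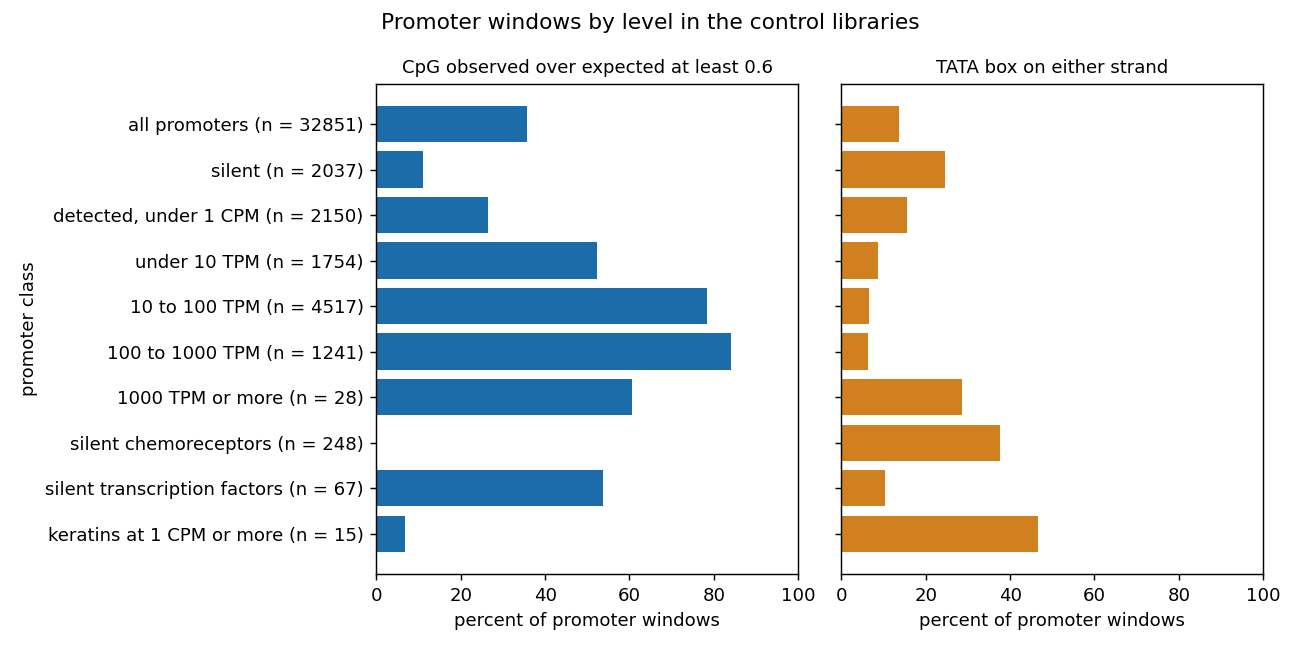
Promoter windows by level in the 3 control libraries: bars give the percent of windows (horizontal axis, from 0) with an observed over expected CG ratio of at least 0.6 (left) or with TATAAA on either strand (right), by class with its number of windows. The share with a high CG ratio is 78.4% and 84.1% for genes at 10 to 100 and 100 to 1000 TPM, 11.1% for silent genes and 53.7% for silent transcription factors.

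The libraries were deep and similar in size, with totals of 27324708, 29998531 and 25481306 counts in control libraries 1, 2 and 3. Genes with a count numbered 16972, 16824 and 16168. The 45S ribosomal RNA precursor Rn45s took 5.24%, 2.18% and 3.95% of the counts. The nuclear RNAs Malat1 and Neat1 together took 4.05%, 2.05% and 1.88%, so that library 1 was highest for both. Genes of ribosomal proteins took under 1% in each library (0.575%, 0.844% and 0.618%).

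Krt5 was the most abundant gene, at 54506, 42945 and 58542 TPM in control libraries 1, 2 and 3, or 51998 ± 8096 TPM. It ranked first of 22807 genes with a length in each library. H19, the imprinted long non-coding RNA that is high in fetal tissues, came next at 15122, 23275 and 29365 TPM. Malat1 came next on average, at 25953, 12781 and 11899 TPM, and was highest in library 1, in which H19 was lowest. Krt14 held the fourth place with 15650 ± 1815 TPM. The fifth was Krt15 (8726 ± 886 TPM), a further keratin of basal cells. Igf2, the growth factor gene next to H19, was even between libraries at 3377, 3439 and 3497 TPM. For Igf2, 75.9% of the 50-base stretches of the longest transcript also occur in transcripts of another annotated gene, so its count rests on how such reads were assigned.

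The other genes among the 25 highest fell into a few groups. Stfa3, a stefin of the cystatin family of protease inhibitors, stood at 8459, 8641 and 3761 TPM, lowest in library 3. BC100530, of the same family, was also lowest in library 3, at 2178, 2989 and 1407 TPM, and so was S100a11, a calcium-binding S100 protein, at 2649, 3457 and 1544 TPM. Genes of cell adhesion were Perp (5058 ± 1496 TPM), Col17a1 (2980 ± 247 TPM), Dsp (2768 ± 144 TPM) and Pkp1 (2026 ± 469 TPM). Krtdap stood at 4253 ± 837 TPM, and the suprabasal keratin genes Krt1 and Krt10 at 2538 ± 544 and 2022 ± 234 TPM. Genes of protein synthesis and folding were Rpl4 (3888 ± 1005 TPM), Eef2 (3258 ± 741 TPM), Eef1a1 (2970 ± 604 TPM) and Hsp90ab1 (2989 ± 336 TPM). The remaining 5 were Atp5b, a subunit of the mitochondrial ATP synthase (2495 ± 518 TPM), the actin gene Actb (2444 ± 232 TPM), the calmodulin gene Calm2 (2343 ± 198 TPM), and the 14-3-3 genes Ywhae (2152 ± 68.4 TPM) and Ywhaz (2142 ± 68.7 TPM). The 10 most abundant genes held 14.0%, 13.3% and 14.6% of all TPM.

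**Figure D2:**
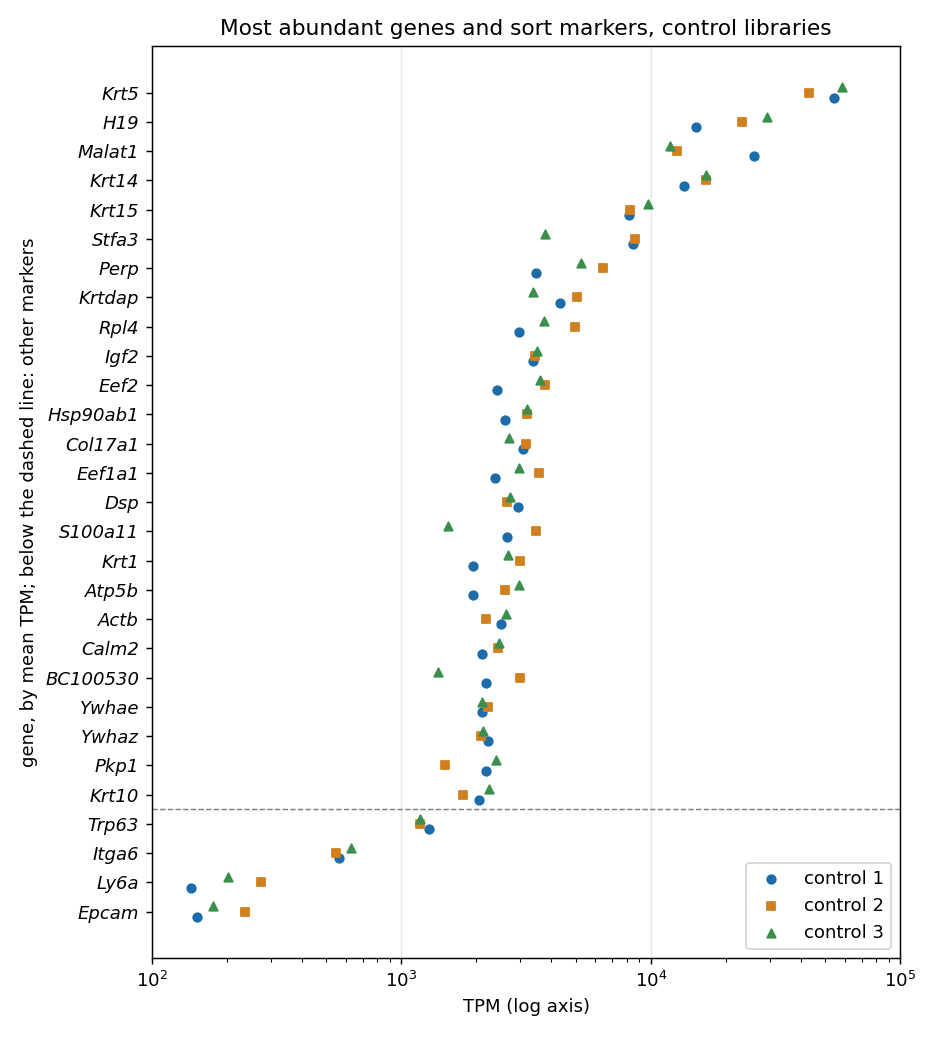
TPM (horizontal, log axis) of the 25 most abundant genes in order of mean TPM, and below the dashed line of the 4 other sort and lineage markers, with 1 point for each control library. Krt5 lies apart at the top, and all points of Trp63 and Itga6 lie above those of Ly6a and Epcam.

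The label of the sort was checked against its markers. Per GENCODE on build GRCm38, Itga6 lies at chr2:71745616-71858416, Ly6a at chr15:74994877-74998031 and Epcam at chr17:87635979-87651129, while Krt5 lies at chr15:101707070-101712898, Krt14 at chr11:100203162-100207548 and Trp63 at chr16:25683763-25892102. Itga6, the α6 integrin gene, stood at 561, 545 and 630 TPM and took places 142, 173 and 132 by TPM. Ly6a stood at 143, 274 and 202 TPM, and Epcam at 152, 237 and 177 TPM. For both, library 1 was lowest and library 2 highest. By mean TPM these antigens stood at percentiles 99.4 (Itga6), 96.5 (Ly6a) and 95.9 (Epcam) of all ranked genes. Ly6a was the only 1 of the 3 to differ by over 2-fold between libraries, by 2.02-fold in CPM. Trp63 was at 1292, 1191 and 1185 TPM, in place 45 by its mean. On the CPM scale Trp63 varied little, at 2049 ± 40.9 CPM. A list of 25 basal keratinocyte genes was at 1 CPM or more in full (25 of 25, against 50% of all genes). The list holds the 3 sort antigens, Krt5, Krt14 and Trp63, and was drawn up with earlier results of these data known. Its full count is therefore no independent check of the label. The summed level of the list was 51951, 52507 and 57044 CPM.

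Keratins took 8.16%, 7.50% and 9.16% of all TPM. Of the 55 keratin genes listed, 28 encode type I and 27 type II keratins, and each filament pairs 1 of each type. The type II genes exceeded the type I genes in summed TPM in all 3 libraries, by a ratio of 2.26, 1.59 and 2.03. Krt5 and Krt14 together made up 83.4%, 79.6% and 82.1% of keratin TPM, or 81.7 ± 1.93%. Krt5 exceeded Krt14 by a ratio of 4.02, 2.57 and 3.51 in TPM, though 14.4% of the 50-base stretches of the Krt14 transcript and 8.52% of those of Krt5 occur in other genes. Library 2 had the lowest share of Krt5 and library 1 the highest. Krt5 also shares 129 exonic bases, and Dsp 499, with another annotated gene, and with no strand setting stated for the counting, reads from such overlaps cannot be told apart.

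Below the basal pair the keratins fell in steps. Krt15 was 10.5% of mean keratin TPM. Krt1 and Krt10 followed, with 1653, 2707 and 2390 CPM for Krt1 and 838, 766 and 958 CPM for Krt10. Their ratio in TPM was 0.944, 1.69 and 1.19, so that which of the pair was higher differed between libraries. Krt17, a keratin of appendages and of stressed epidermis, stood at 1515 ± 425 TPM. After it came a drop to Krt16, a wound-response keratin, at 97.7 ± 19.1 TPM, and Krt80 at 43.1 TPM. Krt71 (18.2 TPM), an inner root sheath keratin, and Krt6a (13.6 TPM), a further wound-response keratin, completed the first 10. Among neighbours in this order, the ranges in TPM overlapped for Krt1 and Krt10, for Krt10 and Krt17 and for Krt71 and Krt6a, and not for the others.

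A total of 21 of 55 keratins reached 1 CPM in all libraries (38.2%, against 50% of all genes). Of the 55, 8 were silent (14.5%, beside 24.8% of all genes). The silent ones were Krt33b, Krt34, Krt39, Krt40, Krt76, Krt81, Krt83 and Krt84, most of them hard keratins of the hair shaft. Simple epithelial keratins were near the limit of detection, with Krt8 at 0.186, 1.27 and 0 CPM and Krt18 at 0.149, 0.585 and 0.119 CPM. Both were highest in library 2. None of the 8 keratins with a mean of at least 10 CPM differed by over 2-fold between libraries.

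**Figure D3:**
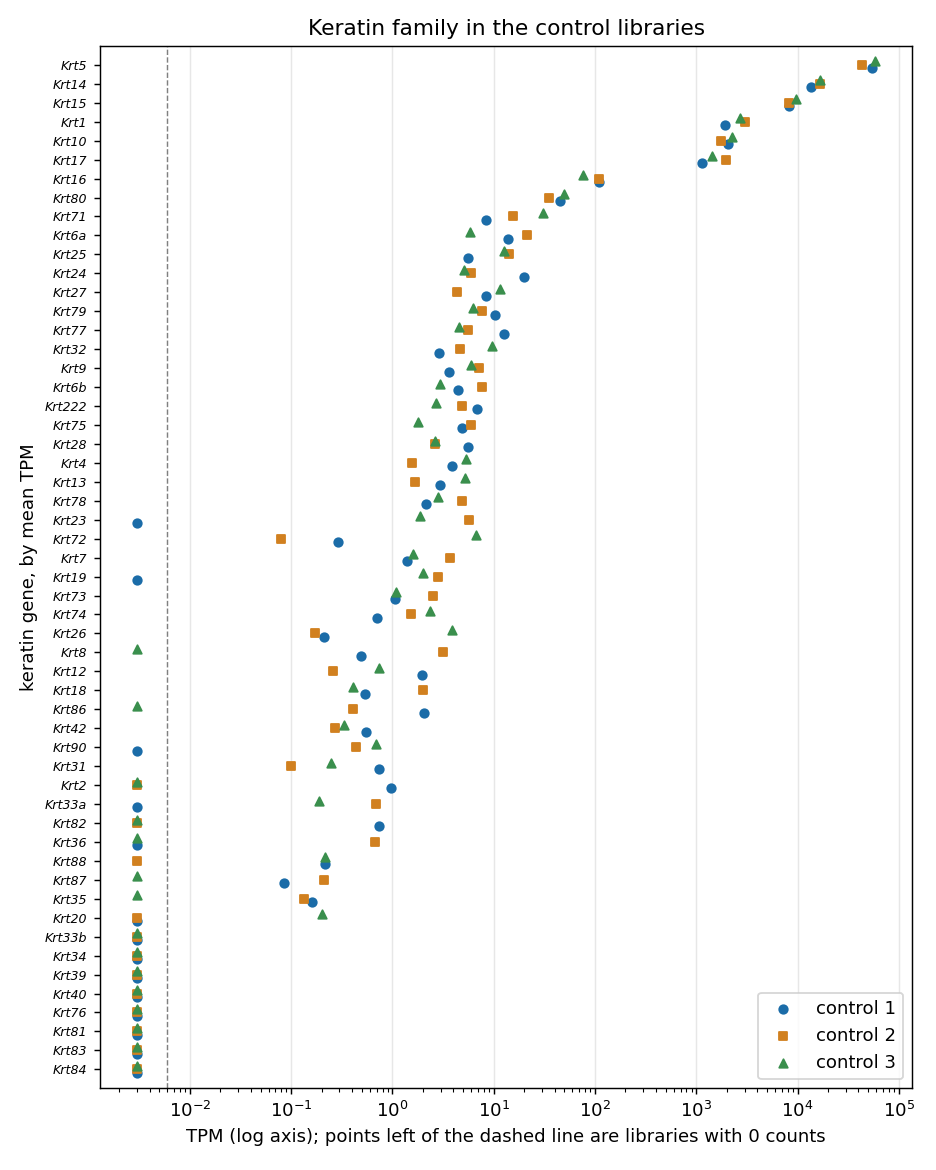
TPM (horizontal, log axis) of the 54 keratin genes with an annotated length, in order of mean TPM, with 1 point for each control library and libraries with 0 counts drawn left of the dashed line. The 6 highest lie above 1000 TPM, and the 8 at the foot are at 0 in all 3 libraries.

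Hemidesmosome genes were uniformly high. All 9 members of the list, which joins the plaque, the receptors and their laminin ligand, were above 10 CPM on average, with a median of 579 TPM against 4.42 TPM for all genes. Col17a1, the transmembrane collagen of the hemidesmosome, led with 3577, 3880 and 3281 CPM. Dst, which encodes the plaque protein BPAG1 besides other isoforms, had 6172, 7361 and 5850 CPM but 785 TPM because of its length. Itgb4, the β4 integrin gene, was among the steadiest genes, at 997, 1005 and 988 CPM. Plec (plectin) varied more, at 2058, 1067 and 1460 CPM. Lama3 and Lamb3, which encode chains of laminin-332, the main ligand of α6β4, stood at 586 and 243 TPM. Library 1 was lowest for both.

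Among other integrins the order in TPM was Itgb4 (711), Itga6 (579), Itga3 (417), Itgb1 (407) and, at a distance, Itgb5 (99.1) and Itgav (58.8). Itga3 and Itgb1 encode α3β1, which also binds laminin-332. Itga3 differed over 2-fold, at 325, 683 and 428 CPM with library 2 highest, while Itgb1 stood at 318, 326 and 353 CPM. Of 27 integrin genes, 23 reached 1 CPM in all libraries (85.2%, against 50% of all and 57.0% of protein-coding genes), and Itgb2l was silent. Cd44, the hyaluronan receptor, stood at 1371, 1220 and 1091 CPM. In TPM its mean of 908 was above that of every integrin gene.

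Desmosome genes were also high, with 13 of 16 at 1 CPM or more in all libraries (81.25%, against 50% of all genes). Perp, a p63 target needed for desmosome assembly, had 1307, 2567 and 2082 CPM and was lowest in library 1. Dsp differed by 2.18% (coefficient of variation), with 5461, 5228 and 5331 CPM. After Perp, Dsp and Pkp1 came Dsc3 (1149 TPM), Jup (plakoglobin, 961 TPM) and Pkp4 (430 TPM). Adherens junction genes were led by Ctnnb1 (β-catenin, 1218 TPM) and Cdh1 (E-cadherin, 1130 TPM), with Cdh3 (P-cadherin) at 309 TPM. Cdh1 stood at 1083, 780 and 1230 CPM, lowest in library 2.

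Claudins and connexins reached 1 CPM less often than all genes. Of 25 claudin genes 3 reached 1 CPM in all libraries (12%, against 50% of all genes). A total of 10 of the 25 were silent, where 24.8% of all genes were. Cldn1, the main epidermal claudin, held most of the summed CPM at 365, 544 and 545 CPM. Cldn12 followed at 24.4, 31.1 and 25.1 CPM. Of 20 connexins 7 reached 1 CPM in all (35%), led by Gja1 (connexin 43) at 324, 340 and 461 CPM and 183 TPM. Gjb2 stood at 44.2 TPM.

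Collagens, laminins and other matrix genes came next. After Col17a1, collagens in TPM were Col12a1 (329.5), Col7a1 (289), Col18a1 (182), Col4a2 (155) and Col4a1 (138). Col7a1, the anchoring fibril collagen, stood at 727, 503 and 544 CPM. The laminins beside those of laminin-332 were Lamc1 (283 TPM), Lama5 (247 TPM) and Lamb2 (112 TPM). Secreted matrix proteins included Sparc (1291 ± 124 TPM), Postn (periostin, 952 ± 139 TPM), Tnc (tenascin C, 656 ± 37.8 TPM), Tgfbi (466 TPM), the basement membrane proteoglycan genes Hspg2 (447 TPM) and Agrn (420 TPM). Of 44 collagens 29 reached 1 CPM in all libraries (65.9%, against 50% of all and 57.0% of protein-coding genes). Silent were 4 (9.09%, beside 24.8% of all genes), namely Col22a1, Col6a4, Col6a5 and Col9a1.

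The transcription factor set, 678 genes chosen by name pattern, included 380 at 1 CPM or more in all libraries. That share of 56.05% was close to the 57.0% of protein-coding genes, against 50% of all genes. Trp63 was second only to Ybx3, a cold-shock domain protein that binds RNA as well as DNA, which stood at 1297, 1746 and 1282 TPM. Egr1, an immediate early gene, stood at 1051, 791 and 1196 TPM. Pou2f3, known from epidermal differentiation, was at 953 ± 101 TPM. Klf4, a factor of barrier formation, was at 996, 518 and 730 TPM with library 1 highest. The ranges in TPM of Trp63 and Egr1 overlapped, and so did those of Egr1 and Pou2f3.

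Further factors by mean TPM were Ybx1 (623), the AP-1 subunit gene Fosl2 (622), the retinoid X receptor gene Rxra (582), Klf5 (577), Snai2 (542) and Tfap2a (518). Irx4 (481), Ets2 (453), Myc (440), Fos (436), Tfap2b (433), Trp53 (425), Tcf20 (425) and Bcl11b (407) followed. Tfap2a and Tfap2b encode AP-2 factors of the epidermal lineage. Snai2, also called Slug, stood at 202, 263 and 192 CPM, and represses Cdh1 in other settings. Of the 310 factors with a mean of at least 10 CPM, 21 (6.77%) differed by over 2-fold between libraries, beside 564 of 8925 genes of that level in all (6.32%). Of these, Grhl3, a factor of the cornifying layers, had 57.4, 26.6 and 53.9 CPM, and Lhx2, a hair follicle factor, 10.2, 25.1 and 11 CPM.

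A total of 127 transcription factors (18.7%) had no count, beside 24.8% of all genes and 20.3% of protein-coding genes. They included the gut and endoderm factors Cdx1, Cdx2, Cdx4, Foxa1, Foxa2 and Foxa3, the muscle factors Myf5, Myf6 and Myod1, the neural factors Neurog1, Neurog3, Neurod2, Pou3f2, Olig3 and Otx2, and the heart and thyroid factors Nkx2-5 and Nkx2-1. Atoh1, Sox2 and Isl1, which act in Merkel cells, were also silent. Of 39 Hox genes 19 reached 1 CPM in all libraries (48.7%, beside 50% of all and 57.0% of protein-coding genes). A total of 7 were silent (17.9%, beside 24.8% of all and 20.3% of protein-coding genes), among them Hoxa10, Hoxa11, Hoxa13 and Hoxd12. The highest Hox gene was Hoxa2, at 47.3, 61.3 and 59.5 CPM. With 3 counts as the limit that a count of 0 allows over the summed libraries, a silent gene could have a level of up to 0.0362 CPM, which covers counting error only.

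Of the 4161 silent protein-coding genes 1301 (31.3%) were chemoreceptors. No count was seen for 1002 of 1121 olfactory receptors (89.4%), 300 of 328 vomeronasal receptors (91.5%) and 31 of 38 taste receptors (81.6%). Of all genes 24.8% had no count, and of protein-coding genes 20.3%. The highest olfactory receptor was Olfr920 at 5.17 CPM. All 27 alpha-defensin genes, 39 of 43 beta-defensins, 25 of 27 prolactin family genes and 39 of 54 keratin-associated protein genes were silent. The last encode matrix proteins of the hair shaft. Of 21 late cornified envelope genes 4 were silent (19.0%), near the 20.3% of protein-coding genes. Only 5 (23.8%) reached 1 CPM in all libraries, against 50% of all and 57.0% of protein-coding genes. The highest mean over the 3 libraries was 6.48 CPM, for Lce1b. No proteasome subunit of 39 was silent.

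Some genes that every cell uses were nevertheless listed at or near 0. Gapdh, of the glycolysis pathway, had 213, 96 and 127 counts, or 5.36 ± 2.43 CPM. Rpl26 and Rpl34, which encode ribosomal proteins, had none in any library. The share of 50-base stretches found in transcripts of other genes was 27.2% for Gapdh, 47.4% for Rpl26 and 6.93% for Rpl34. Over 85 genes of ribosomal proteins that share had a median of 31.6%, and 16 of these genes had a mean under 5 CPM while another 16 had 100 CPM or more. The globin genes Hba-a1, Hba-a2, Hbb-b1, Hbb-b2, Hbb-bs and Hbb-y were at 0 as well, and 67.5% of such stretches of Hba-a1 are shared. Genes at 0 are therefore given only as listed, those called silent above included, and how reads of such genes were counted was not tested.

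Signalling genes are given by their role. Of 19 Wnt ligands 12 reached 1 CPM in all libraries (63.2%, against 50% of all and 57.0% of protein-coding genes). Wnt4 far exceeded the others, at 1049, 796 and 951 CPM and 1115 TPM, followed by Wnt7b (183 TPM), Wnt10a (124 TPM), Wnt6 (121 TPM) and Wnt3 (117 TPM). Among receptor genes Ryk stood at 236 TPM, Fzd10 at 188 TPM, Fzd6 at 127 TPM and Lgr4 at 113 TPM, and Fzd9 was silent. The inhibitors and feedback genes of the pathway included Sostdc1 (463 TPM), Znrf3 (430 TPM), Kremen2 (253 TPM) and the target gene Axin2 (109 TPM), and Dkk1 was silent. Lef1, a transducer that is high in hair placodes, stood at 428, 467 and 374 CPM. All 14 transducers and secretion genes were at 1 CPM or more, against 50% of all genes.

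Notch genes were present as ligand, receptor and target. Jag2 had 268, 194 and 292 CPM, Jag1 had 103, 136 and 161 CPM, and Dll1 had 43.7, 55.0 and 62.9 CPM. Notch1 was the highest receptor at 269 TPM, before Notch2 (91.4 TPM). The target gene Hes1 was at 27.2, 32.5 and 18.4 CPM and 63.9 TPM, and Hes5 was silent. Receptors of the EGF family were well represented, with Erbb2 at 190 TPM, Egfr at 154 TPM and Erbb3 at 67.8 TPM, whereas the highest ligand, Epgn, was at 19.9 TPM. In the FGF family, Fgfr2 stood at 1229, 1279 and 1359 CPM and 624 TPM and Fgfr3 at 127 TPM. Only 2 of 22 FGF ligands reached 1 CPM in all libraries (9.09%, against 50% of all genes), Fgf11 (44.8 TPM) and Fgf13 (9.08 TPM). A further 7 of the 22 were silent, where 24.8% of all genes were.

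Genes of BMP and TGF-β signalling were led by the ligand Bmp7, at 359, 365 and 274 CPM and 415 TPM, before Bmp2 (164 TPM). Bmp2 differed over 2-fold, at 165, 76.6 and 107 CPM. The receptors Bmpr1a (292 TPM) and Bmpr2 (240 TPM) exceeded Tgfbr2 (116 TPM), and the inhibitor Fst (follistatin) stood at 198 TPM. In the Hedgehog pathway the receptor and target gene Ptch1 was highest, at 1467, 2081 and 2103 CPM and 662 TPM, followed by Gas1 (458 TPM) and Gli2 (322 TPM), and Ihh was silent. The insulin-like growth factor pathway held, beside Igf2, Igfbp2 (358 TPM), Irs1 (300 TPM) and the receptor gene Igf1r (89.9 TPM). Hippo pathway genes were all at 1 CPM or more (18 of 18, against 50% of all genes). Yap1 stood at 234, 467 and 347 CPM and Cyr61, a target of YAP, at 64.2, 158 and 165 CPM. Both were lowest in library 1. In the ectodysplasin pathway Edaradd (205 TPM) exceeded the receptor gene Edar (43.2 TPM) and the ligand gene Eda (21.7 TPM).

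Genes of the cell cycle were expressed throughout. All 19 S phase genes and all 22 genes of G2 and mitosis were at 1 CPM or more in every library. Of all genes 50% were, and of protein-coding genes 57.0%. Mki67, the gene of the proliferation antigen Ki-67, stood at 1621, 1696 and 1413 CPM and 785 TPM, and Top2a at 513, 707 and 672 CPM. The summed S phase list was even between libraries, at 1517, 1522 and 1579 CPM. The summed G2 and mitosis list was less so, at 3654, 4872 and 4247 CPM, with library 2 highest. Ccnd2 (cyclin D2) was the highest D cyclin at 604 TPM, before Ccnd1 (214 TPM). The 18 immediate early genes, which respond to stress within minutes, all reached 1 CPM (against 50% of all genes). They summed to 2563, 2072 and 3050 CPM, with library 3 highest.

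Differentiation genes were present below the basal level. The spinous list (15 genes) summed to 4677, 5833 and 5390 CPM, or 5299.9 ± 583 CPM beside 53834 ± 2794 CPM for the basal list. Beside Krtdap, Krt1 and Krt10 it was led in TPM by Serpinb5 (896), Klf4 (748), Calm4 (474) and Dmkn (321). Of 38 granular and cornified genes 27 reached 1 CPM in all libraries (71.1%, against 50% of all and 57.0% of protein-coding genes). The list summed to 2033, 1980 and 1825 CPM. Most of that sum was Ppl (periplakin), at 1303, 1189 and 1141 CPM. By number, 23 of the 35 detected genes of this list were highest in library 2 and 7 in library 1. Among all genes with a mean of at least 10 CPM, library 2 was highest for 37.6% and library 1 for 30.9%. Only 14 genes of the list reached that level. Of them 5 (35.7%, against 6.32% of all such genes) differed by over 2-fold. Lor (loricrin) was at 8.54, 16.6 and 12.1 CPM and Ivl (involucrin) at 1.16, 2.01 and 0.949 CPM. In bulk RNA fewer cells of a type and less RNA per cell cannot be told apart, here and in the lists below.

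Lists of markers of other cell types each had detected members and summed to less than the basal list. A gene is called detected with any count in any library. Only 24.8% of all genes and 20.3% of protein-coding genes had none. The numbers of detected members, here and in the paragraphs below, therefore say little about those cells. Hair follicle and placode genes summed to 1493, 1684 and 1393 CPM over 19 genes, all detected, led by Cxcl14 (590 TPM), Sostdc1 and Lef1, with a median of 57.5 TPM against 4.42 TPM for all genes. Hair sheath and shaft genes summed to 487, 431 and 461 CPM over 29 genes, 24 detected. Most of that sum was the transcription factor gene Gata3, at 309, 260 and 273 CPM and 354 TPM. Dlx3, a further factor gene, followed in TPM at 85.7, 71.8 and 62.0 CPM. Krt71, the highest keratin of the list in TPM, was at 3.58, 6.88 and 13.6 CPM, and Krt33b, Krt34, Krt81, Krt83 and Krt84 were at 0. Sebocyte genes summed to 338, 231 and 363 CPM over 14 genes, 12 detected, mostly the lipid synthesis gene Fasn at 254, 151 and 262 CPM. Dermal fibroblast genes summed to 777, 958 and 991 CPM, with 20 of 20 detected, and were highest for Dcn (decorin), at 123, 304 and 224 CPM, and Vim (vimentin), at 164, 130 and 195 CPM. The fibrillar collagen genes Col1a1, Col1a2 and Col3a1 together had 254, 279 and 281 CPM, while Pdgfra, a defining receptor of fibroblasts, was at 1.75, 2.76 and 3.68 CPM.

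Immune lists differed in their spread. Without Epcam, which the list shares with the sort, the 21 Langerhans cell and myeloid genes were all detected and summed to 815, 246 and 492 CPM. Library 1 was highest and library 2 lowest. The 4 genes of the class II antigen presentation complex, Cd74, H2-Aa, H2-Ab1 and H2-Eb1, summed to 410.5, 90.2 and 119 CPM. Csf1r, a myeloid receptor, stood at 84.6, 22.4 and 60.9 CPM, and Ptprc, the pan-leukocyte gene of CD45, at 27.9, 12.2 and 22.9 CPM. Cd207, which encodes langerin of mature Langerhans cells, stood at 0.298, 0.0325 and 0 CPM. T cell genes summed to 62.1, 54.9 and 56.8 CPM with 14 of 15 detected, but the sum was mainly Thy1 and Cd5, and Cd3e had 20, 0 and 9 counts.

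Of the other lists, endothelial genes summed to 63.0, 17.8 and 94.7 CPM with 14 of 14 detected. Of these, 8 were highest in library 1 and 5 in library 3. Among all genes with a mean of at least 10 CPM, a level that 2 of the 14 reached, the shares were 30.9% and 31.5%. Cdh5 (VE-cadherin) was at 14.9, 0.422 and 19.7 CPM and Lyve1 at 15.1, 3.86 and 47.0 CPM, so that library 2 was lowest for both, and the higher sum of library 3 than of library 1 was mainly Lyve1. Merkel cell genes summed to 17.6, 36.0 and 20.4 CPM with 12 of 16 detected, and Atoh1, Sox2, Isl1 and Cck were at 0. Most of the higher sum of library 2 was Ncam1, at 7.64, 23.9 and 7.95 CPM. Melanocyte genes summed to 77.2, 79.4 and 71.1 CPM with 14 of 14 detected, of which Trpm1 made up the most, at 40.6, 52.4 and 48.4 CPM. The gene that led the list in TPM, Pmel, stood at 20.2, 15.6 and 5.22 CPM. The pigment genes Tyr and Tyrp1 were at or under 0.514 and 0.292 CPM. Mural genes summed to 184, 180 and 208 CPM with 11 of 11 detected, mostly Notch3 and Cspg4, with Pdgfrb at or under 0.487 CPM. Schwann cell genes summed to 111, 113 and 117 CPM with 9 of 10 detected, mostly Erbb3, with Sox10 at or under 0.396 CPM. Mast cell, adipocyte, erythroid and skeletal muscle genes summed to between 7.55 and 52.0 CPM in every library. Of these lists 8 of 9, 10 of 10, 4 of 10 and 12 of 13 genes were detected, and the mast cell receptor gene Fcer1a and the muscle factor gene Myod1 were at 0, as were Foxd3 of the Schwann cell list and Trat1 of the T cell list. Wound-response genes, led by Krt17, summed to 424, 712 and 514 CPM with 14 of 14 detected and library 2 highest. The part of these cells in any difference between libraries was not tested.

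**Figure D4:**
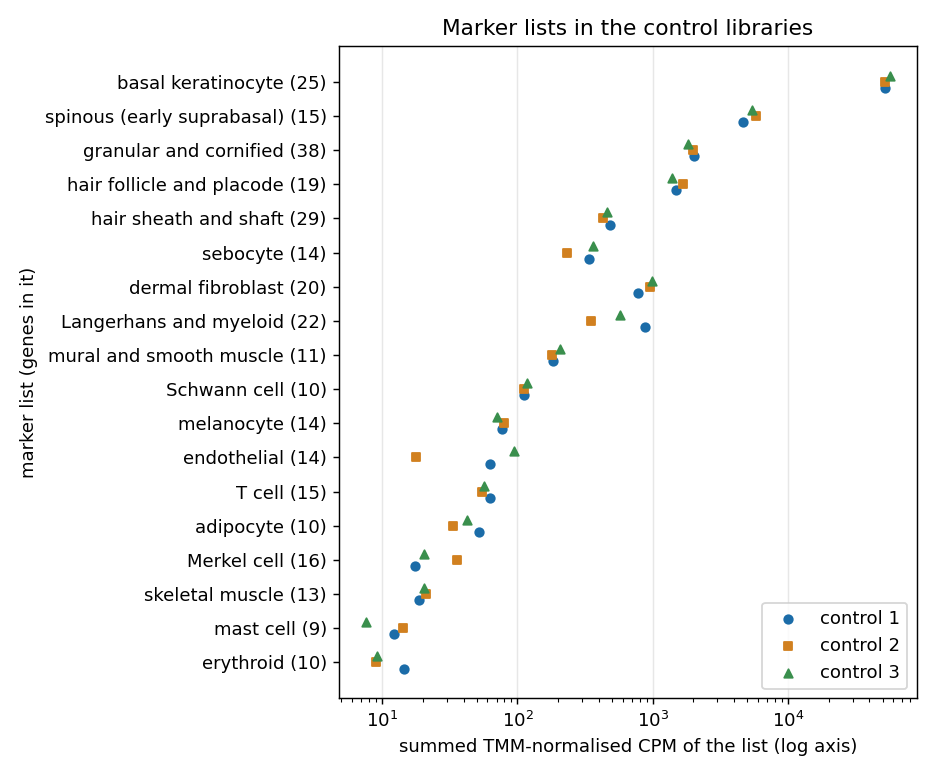
Summed TMM-normalised CPM (horizontal, log axis) of 18 marker lists, with the number of genes in each and 1 point for each control library. The basal list lies between 51951 and 57044 CPM, and the points lie furthest apart for the endothelial and the Langerhans and myeloid lists. The Langerhans and myeloid list is drawn with Epcam.

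Xist, the RNA of the inactive X chromosome, was high in all 3 libraries, at 7730, 5716 and 5364 CPM. The Y-linked genes Eif2s3y, Ddx3y, Uty and Kdm5d had at most 4 counts each in a library.

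The 3 libraries ranked genes alike and differed beyond counting noise. Over all 24453 genes Spearman's rho was 0.964 for libraries 1 and 2, 0.971 for libraries 1 and 3 and 0.967 for libraries 2 and 3. Pearson's r of log2 CPM was 0.985, 0.988 and 0.989. These are correlations across genes, which are not independent replicates. A chi-square of the counts, divided by its degrees of freedom, was 114, 70.2 and 51.1 for the same pairs, where sampling alone would give about 1, so no pair behaved as 1 library deposited more than once. The common biological coefficient of variation from edgeR was 0.281. Of the 8925 genes with a mean of at least 10 CPM, 564 (6.32%) had a highest library over 2-fold above the lowest, and the median coefficient of variation was 15.2%. The share over 2-fold was 12% at 10 to 30 CPM, 3.72% at 30 to 100 CPM and 2.25% at 100 to 300 CPM. It was 2.004% at 300 to 1000 CPM but 8.77% (5 of 57 genes) at 1000 CPM or more, so it did not fall throughout with level.

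Of the 8925 genes, library 1 was the lowest of the 3 for 41.8%, library 2 for 32.5% and library 3 for 25.7%, and the highest for 30.9%, 37.6% and 31.5%, on the TMM scale alone. Among the 564 genes over 2-fold, library 1 was highest for 226 and lowest for 229. The median exon length of genes highest in library 1 was 5805 bases, and of those highest in library 2 it was 4294 bases. Across genes, the log2 ratio of the second to the first library of each pair had a rank correlation with exon length of -0.22 for libraries 1 and 2, -0.098 for libraries 1 and 3 and 0.17 for libraries 2 and 3, given as a description across genes.

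**Figure D5:**
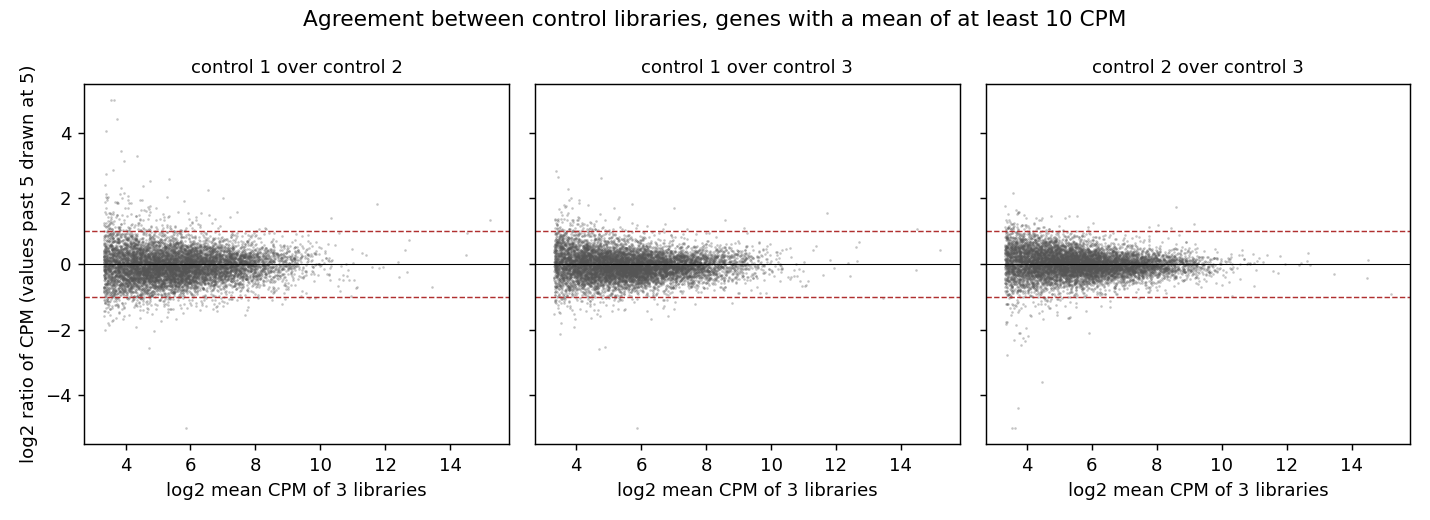
Log2 ratio of CPM between each pair of control libraries (vertical axis) against log2 mean CPM (horizontal) for the 8925 genes with a mean of at least 10 CPM, with 1 point for each gene and dashed lines at 2-fold (first library over second, values past 5 drawn at 5). Points spread most at low CPM, and 4.04%, 2.11% and 1.74% of genes lie outside the lines from left to right.

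By coefficient of variation the first 5 were Camk4 (26.2, 1.56 and 3.68 CPM), H2-Aa (61.0, 10.5 and 9.85 CPM), 9330179D12Rik (44.2, 4.55 and 12.7 CPM), Lyve1 and H2-Eb1. Immune genes were Cd74, H2-Aa, H2-Ab1, H2-Eb1, Csf2rb, Ifi207 and the chemokine gene Cxcl2. All of these had their highest value in library 1. Vascular genes were Lyve1, Cdh5 and Cd93, all highest in library 3 and lowest in library 2. The rest of the first 20 were Lrrc20, Ptprv, 2900005J15Rik, AI506816, Phlda1, Zfhx3, Mybpc1 and Rpl29. Rpl29, of a ribosomal protein, had 0.373, 101 and 73.9 CPM, and 47.9% of its 50-base stretches occur in other genes. The Langerhans and myeloid list, here with Epcam, had 15 genes with a mean of at least 10 CPM. Of these 12 (80.0%), Epcam not among them, differed by over 2-fold, against 6.32% of all genes of that level. The count was 4 of 11 for integrins, 5 of 14 for granular and cornified genes, 3 of 13 for hair follicle genes and 4 of 22 for G2 and mitosis, and 1 of 20 for collagens, 0 of 18 for S phase genes and 0 of 9 for hemidesmosome genes. The genes of smallest coefficient of variation included Hnrnpll (117, 117 and 117 CPM), Ywhaz (1764, 1756 and 1766 CPM), Itgb4 and Fgfr3 (179, 182 and 183 CPM).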

How the data were processed

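RNA-seq read counts per gene of the 3 control libraries were used as deposited by the authors, and the files of the other genotype were not used. The submitters' processing notes list DESeq2 1.6.3, HTSeq 0.6.1, Cufflinks 2.2.1, TopHat2 2.0.13 and build mm10, with no roles. Neither annotation nor strand setting is given in the sources used here. Per the labels, 10 ng of total RNA was amplified before library construction, so reads are not independent molecules and limits from counts cover counting error only.

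CPM were scaled by TMM in edgeR 4.0.16 (R 4.3.3). TPM were computed from the counts and the union of GENCODE M21 exons, matched by 23797 current and 277 older symbols with 379 genes unmatched, leaving out microRNA, small nucleolar RNA and Rn45s rows. Shared sequence is the percent of 50-base stretches of a gene's longest transcript found in another gene. The common dispersion was estimated with an intercept alone after filterByExpr. On simulated data with 18379 genes, coefficients of variation of 0.1, 0.2 and 0.4 were recovered as 0.099, 0.199 and 0.395. Promoter windows came from RefSeq and were kept where the start lay within 100 bases of the GENCODE 5′ end. Python 3.11.15 was used for the other steps. No test between groups was run, since 1 group is described, and a chi-square over its degrees of freedom compared the counts of each pair of libraries as a description.

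Named genes were the markers of the sort, the 25 genes of highest mean TPM, the highest members of each list (10 keratins, 20 transcription factors, up to 6 of others), defining markers of other cell types and the 20 genes of largest coefficient of variation at a mean of 10 CPM or more. Silent members of other lists, Grhl3, Lhx2, Gapdh and the steadiest genes were singled out after their values were seen. The libraries were taken by their genotype label, while the choice of this group to describe, the gene lists and the promoter classes were made with earlier results of these data known. Alternatives covered the scaling, thinning to the smallest library, length model, thresholds and leaving out each library. The promoter alternatives were chosen after seeing the data. Some members of the lists that the naming rule would name are not reported here.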

Additional observations from a re-analysis of the deposited data

How the results depend on the processing

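Values were recomputed under other scalings, thinning, length models, thresholds and listed starts, and with each library left out. Of these, 132 stayed within their limit and 8 passed it. The limit was 1.5 times for counts of genes and 1.1 times for the biological coefficient of variation. It was the binomial interval for promoter shares and the SD between libraries for other values. A mean over 3 libraries can hardly pass that SD when 1 of them is left out, so its staying within the limit says little. The number of genes with a spread over 2-fold, 564 at a mean of 10 CPM or more, was 2733 at a mean of at least 1 CPM and 108 at 50 CPM. Leaving out 1 library gave 167 to 395, with 167 without control library 1 and 207 without control library 2, where fewer libraries are compared. The biological coefficient of variation, 0.281, was 0.249 for genes at 1 CPM or more in all libraries and 0.401 with no filter beyond 1 count, and 0.262 to 0.314 with 1 library left out. The share of silent genes with a CG ratio of at least 0.6 was 9.35% with the most upstream listed start at any distance, and the cause was not tested. No paired analysis was possible because only 1 group is described and no result comes from a test. Depth limits silent genes to 0.0362 CPM over the 3 libraries, and the number of animals behind a library is not known here. Ranks of single genes by TPM depend on the length model, and of 58 recomputed ranks, for 29 genes, 33 moved. By CPM alone, Ly6a takes place 4094 in place of 807 and Epcam place 2641 in place of 926.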
